A study of Mus musculus with 6 samples.

Results

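Iron handling was followed through 10 genes of iron uptake, storage, export and sensing: Tfrc, Slc11a2, Steap3, Slc11a1, Fth1, Ftl1, Ncoa4, Slc40a1, Hmox1 and Ireb2. They were found by symbol among the 55401 gene rows of the deposited count table. All 10 passed the filter on low counts, which left 15959 genes. The set was chosen by function, and because Tfrc was lower in every library with the Piezo1 siRNA. The difference in Tfrc between the groups is therefore given as a description, with no test. The cells were bone marrow-derived macrophages (BMDMs) of C57BL/6 mice, primary macrophages grown from marrow. A negative-control siRNA (siNC) was used for 3 libraries. The other 3 came from cells given siRNA to Piezo1 (siPiezo1), a mechanically gated cation channel. The cells of both groups had been stretched for 4 h, so every value below is from stretched cells. How many siRNAs were used, and their sequences, were not given in the sources used here; unstretched cells were not analysed here.

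Cells take up iron bound to the protein transferrin, which binds the transferrin receptor encoded by Tfrc and is carried into endosomes. There the reductase STEAP3 reduces the iron, and the transporter DMT1 (Slc11a2) moves it into the cytosol. Ferritin, built from heavy (Fth1) and light (Ftl1) chains, stores it, and NCOA4 carries ferritin to lysosomes when iron is needed. Macrophages also recover iron from the heme of engulfed red cells through heme oxygenase 1 (Hmox1), and release it through ferroportin (Slc40a1), the only known iron exporter of mammalian cells. The iron regulatory proteins, one of them encoded by Ireb2, bind a hairpin in mRNA called the iron-responsive element when iron is scarce. Bound in the 3′ untranslated region (UTR), they protect Tfrc mRNA from decay, and bound in the 5′ UTR, they block translation of ferritin and ferroportin mRNA.

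The hairpin was searched for in the mRNAs because its place, 3′ or 5′ UTR, differs between Tfrc and the ferritin and ferroportin mRNAs. The motif was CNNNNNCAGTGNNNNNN on the sense strand, in which the 5 bases before the 6-base loop CAGTGN pair with the 5 after it (G-T pairs allowed) and the last loop base is not G. In the UTRs of 1 principal GENCODE M21 transcript for each of 21897 protein-coding genes, 96 transcripts (0.438%) held it. Tfrc held 4 matches, all in the 3′ UTR, and was the only transcript with more than 1. Fth1, Ftl1 and Slc40a1 held 1 each, all in the 5′ UTR. Each site is shown as 30 bases of the mRNA in DNA letters, 5′ to 3′, with the loop in capitals:
Tfrc, loop at base 3327: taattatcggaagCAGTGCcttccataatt
Tfrc, loop at base 3706: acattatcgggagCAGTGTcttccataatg
Tfrc, loop at base 3771: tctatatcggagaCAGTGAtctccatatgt
Tfrc, loop at base 3818: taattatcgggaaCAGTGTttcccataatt
Fth1, loop at base 99: tttcctgcttcaaCAGTGCttgaacggaac
Ftl1, loop at base 90: tgtcttgcttcaaCAGTGTttgaacggaac
Slc40a1, loop at base 102: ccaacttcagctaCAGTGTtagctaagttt
Bases are counted from the start of each transcript. In Tfrc the coding part runs from base 141 to base 2429 of 4890, so all 4 loops lie in the long 3′ UTR. The ferritin coding parts start at base 225 in Fth1 and base 254 in Ftl1, and that of Slc40a1 at base 320. No match was found in the principal transcripts of Slc11a2, Steap3, Slc11a1, Ncoa4, Hmox1 and Ireb2, which says only that these letters are not there. A match is a sequence description, and the libraries did not measure protein binding or translation.

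**Figure D1:**
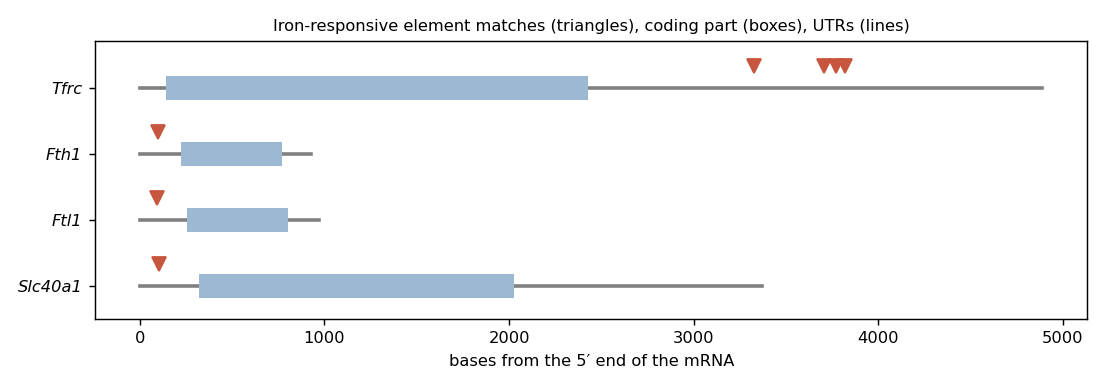
Principal transcripts of Tfrc, Fth1, Ftl1 and Slc40a1 drawn to scale, with the distance from the 5′ end of the mRNA in bases on the horizontal axis. Triangles mark loops of iron-responsive element matches, boxes the coding part and lines the UTRs. Tfrc carries 4 matches after its coding part, and the other mRNAs carry 1 before it.

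Totals were 61086684 to 75052745 estimated counts per library. Levels are given as CPM, counts per 1000000 counts of a TMM-scaled library. Piezo1 itself read 180, 285 and 189 CPM in the siNC libraries 1, 2 and 3 and 111, 109 and 113 CPM in those with siPiezo1 1, 2 and 3, so each siPiezo1 library was below each siNC library. The macrophage markers Csf1r and Lyz2 were abundant in every library, at 2290 to 4547 CPM and 20623 to 26819 CPM. The library siNC 2 differed from the other 5. Correlations of log2 CPM with them were 0.968 to 0.977 across genes, against 0.987 to 0.991 for the 10 pairs without it. Where leaving out siNC 2 turned a direction or a call named below, the value without it is given. Nothing in the labels says that replicates are separate cultures or animals, so errors and p-values cover only the spread between these libraries.

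The transferrin receptor was the member that differed most between the groups. Tfrc (ENSMUSG00000022797) read 466, 379 and 460 CPM in the siNC libraries 1, 2 and 3 and 248, 253 and 211 CPM in those with siPiezo1 1, 2 and 3. The groups did not overlap, and the lowest siNC library was 1.5 times the highest siPiezo1 library. Means ± SD (n = 3) were 435 ± 48.6 CPM for siNC against 237 ± 22.7 CPM for siPiezo1, which held 54.5% of the siNC level. The fitted log2 fold change was -0.87 ± 0.12 (SE). Of all tested genes 5.71% had a log2 fold change as low as this or lower. Among 2081 genes with a mean of at least 100 CPM, a level not set in the fixed design, 22 (1.06%) did. Because Tfrc was chosen for this difference, both shares only describe its size and are not a test. Within siNC, siNC 2 was the lowest, and without it the log2 fold change was -0.97 ± 0.08 (SE). Leaving out any other single library gave values from -0.92 to -0.80. In bulk RNA, fewer cells expressing a gene and less RNA per cell cannot be told apart.

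The other uptake genes lay much closer between the groups. Slc11a2, the endosomal iron transporter DMT1, read 189, 193 and 176 CPM in the siNC libraries and 208, 198 and 188 CPM in those with siPiezo1. The groups overlapped, and the log2 fold change was 0.09 ± 0.08 (SE, adjusted p = 0.991, edgeR). Adjusted p-values marked edgeR are from quasi-likelihood F-tests, adjusted over all tested genes by the Benjamini-Hochberg method. Exons of Gm5475 cover 6.33% of the Slc11a2 exon bases on the opposite strand, and Gm5475 held at most 0.266 CPM. Slc11a1 encodes NRAMP1, a metal transporter of the phagosome membrane that is typical of macrophages. It read 556, 465 and 546 CPM in the siNC libraries and 599, 559 and 591 CPM in those with siPiezo1. Each siPiezo1 library was above each siNC library, but by a narrow margin, with 559 CPM against 556 CPM at the closest. Its log2 fold change was 0.16 ± 0.10 (SE, adjusted p = 0.978, edgeR), and without siNC 2 it was 0.08 ± 0.06.

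Steap3, the endosomal ferrireductase, was the least abundant member and varied most between libraries. It read 45.7, 16.8 and 47.2 CPM in the siNC libraries and 28.2, 44.5 and 43.9 CPM in those with siPiezo1. The low libraries were siNC 2 and siPiezo1 1, and the other 4 lay between 43.9 and 47.2 CPM. The log2 fold change of 0.09 ± 0.39 (SE, adjusted p = 0.995, edgeR) took the other sign without siNC 2 (-0.26 ± 0.21), without siPiezo1 2 (-0.02 ± 0.47) or without siPiezo1 3 (-0.01 ± 0.48).

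**Figure D2:**
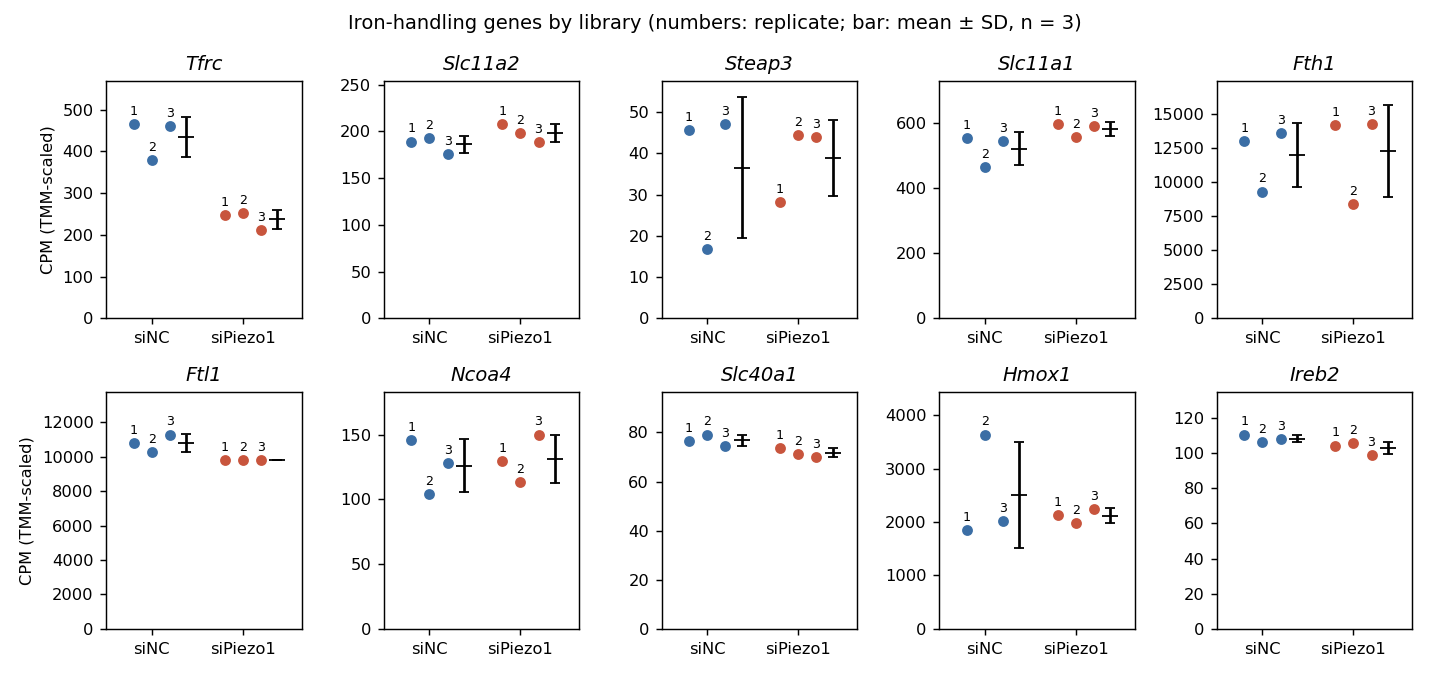
Level of each of the 10 genes in TMM-scaled CPM (vertical axes from 0) in the siNC (blue) and siPiezo1 (red) libraries, with replicate numbers above the points and the mean ± SD (n = 3) in black. Tfrc lies at 379 to 466 CPM in siNC and at 211 to 253 CPM in siPiezo1, and Hmox1 and Steap3 are set apart in siNC 2.

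Storage was dominated by the ferritin chains, which were among the most abundant mRNAs of these cells. Fth1, the heavy chain that oxidises iron for storage, read 13021, 9313 and 13641 CPM in the siNC libraries and 14201, 8404 and 14290 CPM in those with siPiezo1. In both groups replicate 2 was the low library, and the other 4 lay between 13021 and 14290 CPM. Among 10054 genes with a mean of at least 5 CPM, both replicate 2 libraries lay more than 1.3 times below the other 4 for 0.229% and more than 1.3 times above them for 0.139%. This pattern was looked for after the Fth1 values were seen. No other gene of the annotation used shares exon bases with Fth1 or Steap3, but how reads were assigned to gene models was not tested, so their low values are uncertain. Its log2 fold change was 0.04 ± 0.25 (SE, adjusted p = 0.996, edgeR). Its sign turned without siNC 2 (-0.12 ± 0.29), siPiezo1 1 (-0.08 ± 0.29) or siPiezo1 3 (-0.09 ± 0.29).

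Ftl1, the light chain that aids formation of the iron core, was not set apart in replicate 2 of both groups as Fth1 was. Within siNC, replicate 2 was still the lowest library for Ftl1. It read 10805, 10302 and 11298 CPM in the siNC libraries and 9818, 9816 and 9815 CPM in those with siPiezo1. Each siPiezo1 library was below each siNC library, and the siPiezo1 mean was 90.9% of that in siNC. Its log2 fold change was -0.14 ± 0.09 (SE, adjusted p = 0.978, edgeR). Without siNC 2 it was -0.17 ± 0.05 (SE, adjusted p = 0.121, edgeR; 0.121 to 1 over all alternatives with a p-value). Counts of Ftl1 are uncertain, since 9 genes match its mRNA at 90% identity or more over at least 300 bases and together held 2.60% of its CPM. Gm22133, annotated as a miRNA gene on the same strand, covers 8.13% of the Ftl1 exon bases and held 771, 700.0 and 785 CPM in siNC 1, 2 and 3 against 650.4, 632 and 661 CPM in siPiezo1 1, 2 and 3. Its reads cannot be told from those of Ftl1 here. Gm10252 on the opposite strand covers 26.5% of its exon bases and held at most 10.3 CPM.

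The ratio of heavy to light ferritin mRNA, each per kb of transcript, was 1.26, 0.942 and 1.26 in siNC and 1.51, 0.892 and 1.52 in siPiezo1. Within each group the replicate 2 library was the only one with more light than heavy chain mRNA per kb. The group means of 1.15 ± 0.18 and 1.31 ± 0.36 (SD, n = 3) differed by less than the spread (exact two-sided permutation test, p = 0.6, where 0.1 is the smallest value 3 against 3 allow). Ncoa4, the receptor that delivers ferritin for lysosomal breakdown, read 146, 105 and 128 CPM in the siNC libraries and 130, 113 and 150 CPM in those with siPiezo1. The groups overlapped, with replicate 2 again lowest in each. The log2 fold change was 0.06 ± 0.15 (SE, adjusted p = 0.993, edgeR), with the other sign without siNC 2 (-0.07 ± 0.12) or siPiezo1 3 (-0.05 ± 0.17). A copy, Gm6768, matches Ncoa4 over 1878 bases and held 39.4 CPM on average, so the Ncoa4 counts are uncertain.

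Export and heme breakdown were represented by Slc40a1 and Hmox1. Slc40a1, which encodes ferroportin, read 76.7, 79.2 and 74.7 CPM in the siNC libraries and 73.8, 71.2 and 70.1 CPM in those with siPiezo1. Each siPiezo1 library was below each siNC library, with 73.8 against 74.7 CPM at the closest. Its log2 fold change was -0.10 ± 0.07 (SE, adjusted p = 0.978, edgeR). Hmox1, which opens the heme ring and frees its iron, read 1853, 3636 and 2016 CPM in the siNC libraries and 2124, 1977 and 2251 CPM in those with siPiezo1. The single high library was siNC 2. Among 10054 genes with a mean of at least 5 CPM, siNC 2 lay more than 1.5 times above all other libraries for 434 (4.32%) and more than 1.5 times below them for 397 (3.95%). Hmox1 was one of the first and Steap3 one of the second. The log2 fold change of Hmox1 was -0.24 ± 0.26 with all 6 libraries and 0.13 ± 0.07 without siNC 2 (SE, adjusted p = 0.991 and 0.468, edgeR; 0.468 to 1 over all alternatives).

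Ireb2, which encodes iron regulatory protein 2, was the steadiest member, with a ratio of 1.12 between its highest and lowest library. It read 110, 106 and 108 CPM in the siNC libraries and 104, 105 and 98.8 CPM in those with siPiezo1, and the groups did not overlap. Its log2 fold change was -0.07 ± 0.07 (SE, adjusted p = 0.991, edgeR). The mRNA of the other regulatory protein, Aco1, and that of Fbxl5, the ubiquitin ligase subunit that removes iron regulatory protein 2 when iron is plentiful, were looked at after their values were seen. Aco1 averaged 91.5 ± 8.14 CPM for siNC against 93.8 ± 5.58 CPM for siPiezo1, and Fbxl5 at 108 ± 31.5 and 100.1 ± 6.21 CPM (SD, n = 3). Both signs rested on siNC 2: the log2 fold change was 0.04 ± 0.10 for Aco1 and -0.12 ± 0.20 for Fbxl5 with all libraries, and -0.04 ± 0.07 and 0.14 ± 0.09 without it (SE). Fbxl5 was high in siNC 2, at 144 CPM against 98.1 and 83.4 CPM in siNC 1 and 3. These proteins are controlled by iron after translation, which mRNA levels do not show.

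**Figure D3:**
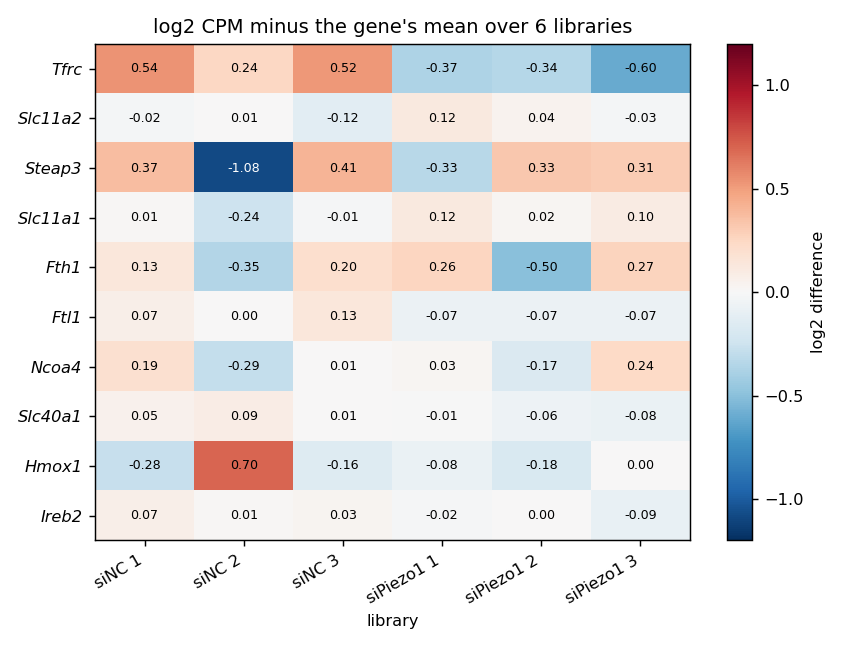
Difference of log2 CPM in each library (columns) from the gene's mean over 6 libraries, for the 10 genes (rows). Tfrc is positive in all 3 siNC libraries (0.24 to 0.54) and negative in all 3 siPiezo1 libraries (-0.60 to -0.34), while Steap3 (-1.08) and Hmox1 (0.70) depart most in siNC 2.

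Of the 9 members other than Tfrc, 0 passed an adjusted p of 0.05 with edgeR, and over all genes 1 of 15959 (0.00627%) passed. At an unadjusted p under 0.05 there were also 0 of the 9, where 4.93% of all genes reached that level. DESeq2 called 0.551% of all genes and 0 of the 9, and limma-voom also called 0 of the 9. Without siNC 2, edgeR called 180 of 16442 genes (1.09%; 0.645% higher and 0.45% lower) and again 0 of the 9. The groups did not overlap for 3 of the 9 that were lower in siPiezo1 (Ftl1, Slc40a1 and Ireb2) and 1 that was higher (Slc11a1). Over all tested genes such a separation was seen for 5.65% in the lower and 6.24% in the higher direction. The 4 separated genes had log2 fold changes of -0.14 to 0.16, against -0.87 for Tfrc. The median log2 fold change of the 9 was 0.04, beside -0.01 for all tested genes, and 4 of the 9 were below 0, as were 52.0% of all tested genes. Without siNC 2 the median of the 9 was -0.08, beside 0.004 for the 15945 genes tested both with and without that library. In that fit 6 of the 9 were below 0, as were 7885 of these 15945 genes.

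**Figure D4:**
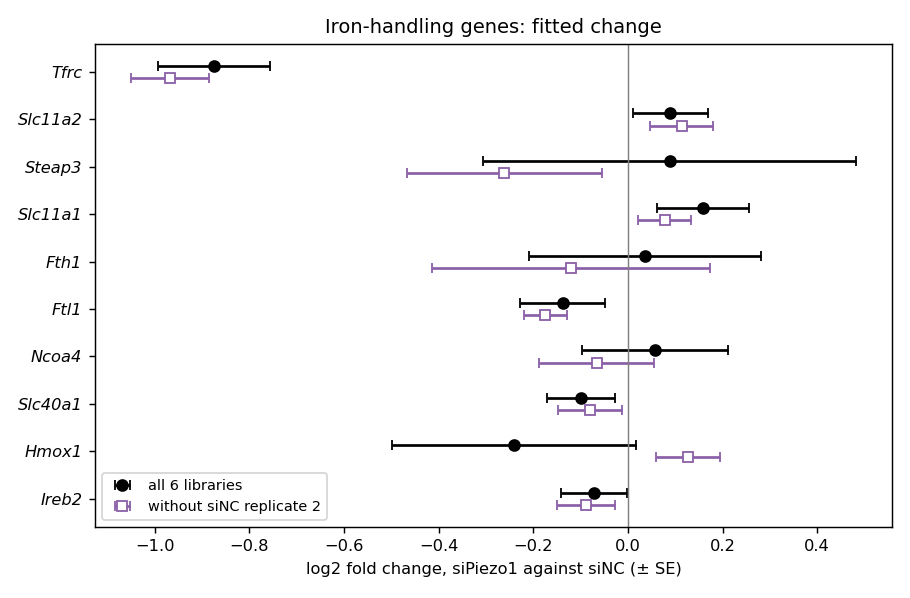
Fitted log2 fold change of siPiezo1 against siNC with its SE for each gene, with all 6 libraries (black circles) and without siNC replicate 2 (open squares). Tfrc lies at -0.87 and -0.97, and the sign of Steap3, Fth1, Ncoa4 and Hmox1 differs between the fits.

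Levels per kb of the principal transcript allow the genes to be ordered. In siNC the order was Fth1 (12908 ± 2520 CPM per kb), Ftl1 (11159 ± 515), Hmox1 (1594 ± 628), Slc11a1 (226 ± 21.5), Tfrc (89.0 ± 9.94), Slc11a2 (61.6 ± 2.92), Ncoa4 (37.7 ± 6.17), Slc40a1 (22.8 ± 0.668), Ireb2 (18.7 ± 0.372) and Steap3 (12.5 ± 5.85; all SD, n = 3). Only the difference between Fth1 and Ftl1 lay within the larger SD of 2 neighbours in this order. Fth1 and Ftl1 ranked at 2 and 3 among 12517 tested protein-coding genes by this measure, Hmox1 at 24 and Tfrc at 736. In siPiezo1 the order of Tfrc and Slc11a2 was the other way round, with 48.5 ± 4.65 and 65.5 ± 3.28 CPM per kb. The ratio of Tfrc to Slc11a2 per kb was 1.52, 1.21 and 1.61 in siNC and 0.736, 0.791 and 0.694 in siPiezo1. Relative to ferroportin, Tfrc stood at 4.19, 3.30 and 4.25 times the Slc40a1 level per kb in siNC and at 2.31, 2.45 and 2.08 times in siPiezo1. These ratios use the Tfrc difference for which the set was chosen.

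Genes whose pattern over the 6 libraries was most like that of Tfrc were found by the root-mean-square difference of log2 CPM, each gene centred on its own mean, among 9399 other named genes with a mean of at least 5 CPM. The nearest was Cd83, a surface protein of activated antigen-presenting cells, with a difference of 0.136 on the log2 scale. It read 8.66, 7.28 and 8.81 CPM in the siNC libraries and 5.37, 5.93 and 4.80 CPM in those with siPiezo1. Also among the nearest 5 were Tmem230 (0.151), the immediate early gene Fos (0.179) and Hsd17b7, an enzyme of cholesterol synthesis (0.179). The log2 fold changes of these 4 lay between -0.69 and -0.56, less than that of Tfrc. Being picked for their likeness, they carry no test. The nearest member of the iron set was Ftl1, at a difference of 0.383 and rank 730. Its log2 fold change was only -0.14, against -0.87 for Tfrc, so the rank does not show a shared pattern.

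The wider machinery of iron and heme was read from 7 lists with 102 genes, of which 90 were tested. With edgeR 0 of the 90 passed the adjusted threshold, 4 were higher and 3 lower at an unadjusted p under 0.05 (2.52% and 2.41% of all genes), DESeq2 called 1, lower (0.551% of all genes in either direction), and limma-voom called 0. The median log2 fold change was 0.01, with 48 genes above and 42 below 0. The groups did not overlap for 9 of the 90 genes that were higher and 4 that were lower in siPiezo1, where 6.24% and 5.65% of all tested genes were so separated. In the list of uptake and endosomal transport, 9 of 15 tested genes were below 0, with a median of -0.12. Trf, which encodes transferrin, read 51.7, 32.8 and 54.0 CPM in the siNC libraries and 32.4, 33.1 and 22.2 CPM in those with siPiezo1. Its siNC 2 library lay with the siPiezo1 libraries, and the log2 fold change was -0.66 ± 0.24 (SE, adjusted p = 0.978, edgeR). Without siNC 2 it was -0.86 ± 0.18 (SE, adjusted p = 0.0853, edgeR; 0.0853 to 1 over all alternatives). Steap1, a metalloreductase, was the gene DESeq2 called (adjusted p = 0.024, against 0.857 with edgeR; 0.024 to 1 over all alternatives). It stood at only 0.230, 0.463 and 0.194 CPM in siNC and at 0 in the 3 siPiezo1 libraries.

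In the heme uptake, breakdown and export list 11 of 16 genes were above 0, with a median of 0.06. Without siNC 2 the direction of this list turned, with 9 of 16 below 0 and a median of -0.11. Hp, which encodes the hemoglobin-binding protein haptoglobin, read 527, 743 and 558 CPM in the siNC libraries and 971, 826 and 1067 CPM in those with siPiezo1. Each siPiezo1 library was above each siNC library. For Hp the log2 fold change was 0.65 ± 0.16 (SE, adjusted p = 0.861, edgeR), and without siNC 2 it was 0.81 ± 0.11 (SE, adjusted p = 0.0223, edgeR; 0.0223 to 1 over all alternatives). Slc48a1, which carries heme out of the phagolysosome, lay on the other side, at 915, 906 and 916 CPM against 861, 779 and 809 CPM (log2 fold change -0.16 ± 0.08, SE).

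Heme synthesis (3 of 13 genes above 0, median -0.06) and the mitochondrial iron and iron-sulfur cluster list (17 of 23 above 0, median 0.04) held small differences. Fech, the enzyme that inserts iron into protoporphyrin, had a log2 fold change of 0.20 ± 0.08. Abcb10, a mitochondrial transporter, had -0.27 ± 0.12, Cisd1, an iron-sulfur protein of the outer mitochondrial membrane, had 0.28 ± 0.11, and Slc25a37, the mitochondrial iron importer mitoferrin 1, had 0.24 ± 0.11 (SE; adjusted p = 0.978 for each, edgeR). In the iron sensing list (4 of 10 above 0, median -0.06) Zfp36, an mRNA decay factor, had -0.27 ± 0.11 and Epas1 had 0.49 ± 0.35 (SE). In the export and hepcidin list (5 of 8 above 0, median 0.06) Neo1 had 0.36 ± 0.15 and Smad6 0.29 ± 0.15 (SE), while Hephl1, Hamp2, Tmprss6 and Hfe2, the mouse hemojuvelin gene, were at 0 in every library. Among storage genes and chaperones (2 of 5 above 0, median -0.04) the iron chaperone genes Pcbp1 and Pcbp2 had 0.08 ± 0.09 and 0.10 ± 0.07 (SE).

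**Figure D5:**
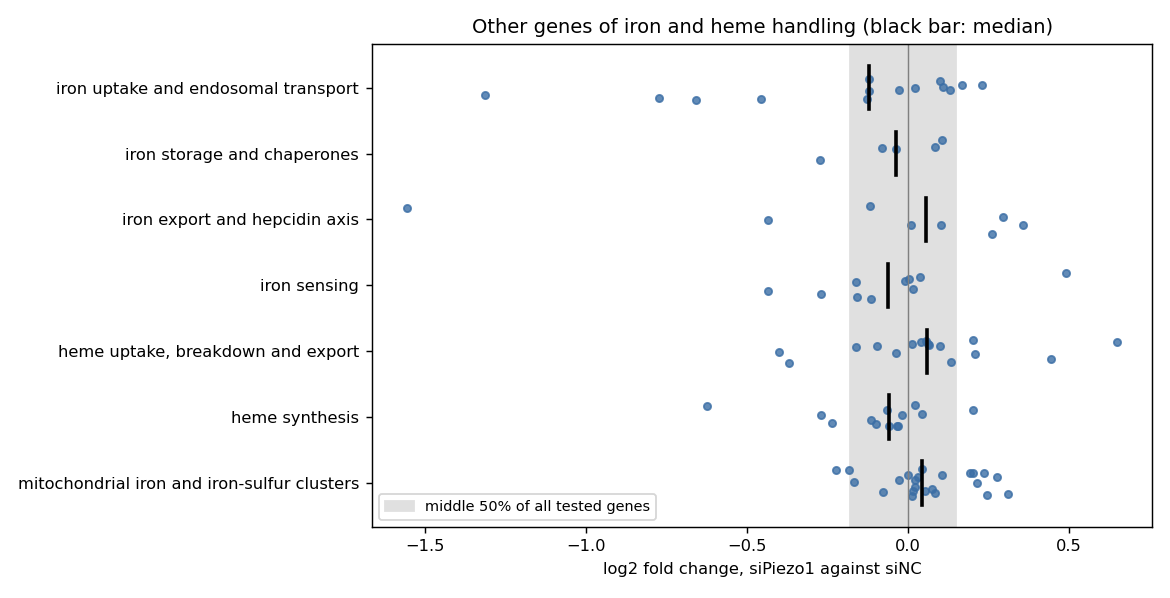
Log2 fold change of siPiezo1 against siNC for each tested gene (points, spread vertically for legibility) in the 7 lists of iron and heme handling, with list medians (black bars) and the middle 50% of all tested genes (grey). Steap1, at 0 in the siPiezo1 libraries, is left out of the points but counted in the median of its list. List medians lie between -0.12 and 0.06 with all 6 libraries.

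Of the 10 mRNAs listed as known carriers of an iron-responsive element, Tfrc and 4 other members among them, 4 were above and 6 below 0, with a median log2 fold change of -0.08. Both ferritin mRNAs, with 1 site each in the 5′ UTR, lay at 0.04 and -0.14. Slc11a2 and Slc40a1 lay at 0.09 and -0.10. The motif search above found no match in the principal transcripts of Slc11a2, Epas1, Cdc14a and Cdc42bpa, so it missed part of these known carriers. Cdc14a and Cdc42bpa turned with siNC 2, from -0.19 ± 0.30 and -0.06 ± 0.23 with it to 0.15 ± 0.22 and 0.24 ± 0.13 without it (SE). The scarce Epas1 and Alas2 had wide errors, at 0.49 ± 0.35 and -0.62 ± 1.38 (SE).

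Lists of proliferation, hypoxia, NRF2 target and inflammatory genes were summed in each library. The 12 proliferation genes summed to 645, 1341 and 652 CPM in siNC and to 734, 881 and 1014 CPM in siPiezo1. With all 6 libraries their median log2 fold change was -0.01, with 7 of 12 below 0. Without siNC 2 it was 0.50, with 0 of 12 below 0, where 7885 of the 15945 genes tested in both fits were below 0. In either fit edgeR called 0 of the 12. Genes of the hypoxia response summed to 1859, 3065 and 1931 CPM in siNC and to 2459, 2388 and 2837 CPM in siPiezo1. NRF2 targets outside the iron genes, listed because NRF2 also drives Hmox1 and ferritin genes, summed to 7550, 9005 and 7743 CPM in siNC and to 9466, 8345 and 9534 CPM in siPiezo1, and 10 of 12 were above 0 (median 0.16). Inflammatory genes summed to 5449, 9235 and 5631 CPM in siNC and to 7319 to 8147 CPM in siPiezo1. Of these 12 genes 11 were below 0, with a median log2 fold change of -1.81, which turned to 0.50 without siNC 2. In that fit edgeR called 3 of 12 hypoxia genes and 2 of 12 inflammatory genes higher, against 0.645% of all genes. The part of these 4 lists in the levels of Tfrc and Hmox1 was not tested.

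Erythroid precursors carry much transferrin receptor, and their markers were low in every library. The 11 matched erythroid markers summed to 0.598 to 10.6 CPM in siNC and 8.89 to 12.3 CPM in siPiezo1, and Epb42 and Car1 were at 0 throughout. Of the 5 tested, 4 were above 0, with a median log2 fold change of 0.54, and edgeR called 0. Neutrophil markers, 12 of 12 matched, summed to 632, 3310 and 679 CPM in siNC and to 601 to 628 CPM in siPiezo1, so they were high in the library in which Hmox1 was high and Steap3 low. Macrophage markers, 10 of 10, summed to 28259 to 35533 CPM in siNC, lowest in siNC 2, and to 34736 to 37590 CPM in siPiezo1; without siNC 2, edgeR called 3 of the 10 lower, against 0.45% of all genes. Summed markers of the other cell types stood at 12.5 to 33.6 and 16.1 to 20.9 CPM for stromal cells, 199 to 541 and 231 to 305 CPM for osteoclasts, 3.77 to 16.7 and 2.06 to 5.43 CPM for lymphocytes, and 7.89 to 13.3 and 3.99 to 6.86 CPM for dendritic cells, siNC before siPiezo1. The part of other cells in the member levels was not tested.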

How the data were processed

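Poly(A) RNA of 6 libraries was sequenced, 3 siNC and 3 siPiezo1, placed in groups by their titles. Per the submitters' processing notes, cutadapt 1.9, HISAT2 2.0.4, StringTie 1.3.4d, DESeq2 and edgeR were used on build GRCm39. Roles of the tools, annotation and strand use were not given in the sources used here. Whole-number estimated counts per Ensembl gene, with no scaling, are what the authors deposited. Low values pile up in steps of 3.67 to 3.74 counts, so a fragment was worth more than 1 count and counting noise is larger than the counts imply. The fixed design assumed counts and the same test was used; no rounding was needed.

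Names came from GENCODE M21 (build GRCm38), which matched 55141 of 55401 identifiers. No coordinates are given, since the builds differ. Hairpins were searched in M21 transcripts, and copies with blastn. Genes were filtered with filterByExpr and tested with edgeR 4.0.16 in R 4.3.3 (TMM, robust quasi-likelihood, group only, Benjamini-Hochberg over all tested genes, threshold 0.05). SE was taken as |log2 fold change| / sqrt(F). The code was tested on simulated data.

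The members and lists were chosen with earlier results of these data known. Named are all 10 members, per wider list the genes at an unadjusted p under 0.05 and the 2 smallest p, and the 5 genes nearest to Tfrc, except items that are not reported here. Of all listed symbols, Ahsp was not matched. Alternatives were RLE size factors, library totals, no filter, a minimum of 50 counts in 3 libraries, and DESeq2 1.42.0. Others were limma-voom (limma 3.58.1) with and without library weights, the replicate block, counts divided by 4, summed ferritin copies, and each library left out. Only rows named Fth-ps, Ftl1-ps or Ftl2-ps were summed, with Fth1 or Ftl1. Gm6768 was not added to Ncoa4, nor were Gm22133 and the Gm-named copies added to Ftl1.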

Additional observations from a re-analysis of the deposited data

How the results depend on the processing

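Under all 16 alternatives the log2 fold change of Tfrc ran from -0.97 to -0.80, both reached by leaving out a library (siNC 2 and siPiezo1 3). With the replicate block it was -0.87. Tfrc was chosen for being lower in every siPiezo1 library, so its sign was fixed by that choice and only the size is described. Of the 9 other members 0 were called under any of them. Of 144 fits of these members under alternatives, 131 kept their direction and 13 turned it. With library weights in limma-voom, Steap3 (-0.18), Fth1 (-0.14), Ncoa4 (-0.053) and Hmox1 (0.069) turned. Leaving out single libraries gave -0.26 to 0.31 for Steap3, -0.12 to 0.25 for Fth1, -0.066 to 0.17 for Ncoa4 and -0.42 to 0.13 for Hmox1. The cause was not tested. Over all genes the count of 1 became 0 with library totals, 88 with DESeq2, 4 with limma-voom and weights and 0 with the replicate block. Leaving out single libraries gave 0 (siNC 1, siNC 3 or siPiezo1 1) to 180 (siNC 2), with 5 without siPiezo1 3. The wider iron list had 1 call with DESeq2, and 0 to 1 when libraries were left out, the 1 without siNC 2. The labels state no pairing of the libraries. Deviations of same-numbered libraries from their group means correlated at 0.03, -0.08 and -0.18. These values do not settle whether libraries were paired, since siNC 2 enters every siNC group mean. The lowest member count was 1269, for Steap3 in siNC 2. Steap1 was not tested at a minimum of 50 counts or with counts divided by 4.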

Other observations

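Counts of Fth1 and Steap3 were low in 1 library of each group, and the part of read assignment to gene models in these counts, or in those of Flvcr1, was not tested. For Fth1 these were siNC 2 and siPiezo1 2, a pattern chosen after its values were seen. Among 10054 genes with a mean of at least 5 CPM, 23 lay more than 1.3 times below the other 4 libraries in both of these. Ftl1, encoding the partner chain, was not among them. For Steap3 the low libraries were siNC 2 and siPiezo1 1, and 28 genes (0.278%) lay more than 1.3 times below the other 4 in that pair. Flvcr1, which encodes a heme exporter and was also singled out after its values were seen, read 99.2, 29.9 and 107 CPM in the siNC libraries and 37.5, 108 and 100.5 CPM in those with siPiezo1. Lcn2, which encodes an iron-siderophore binding protein of the inflammatory response, was chosen in the same way. It read 115, 850 and 126 CPM in the siNC libraries and 179, 184 and 276 CPM in those with siPiezo1, for a log2 difference of -0.77 ± 0.78 with all 6 libraries and 0.82 without siNC 2.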
